A study of Mus musculus with 6 samples.

Results

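Zic1, Zic2, Zic4 and Zic5 encode C2H2 zinc finger transcription factors of one family, and their messenger RNA was measured on Affymetrix Mouse MOE430 2.0 arrays. The members were taken by name: every non-control probe set that the platform annotation gives to exactly 1 gene symbol, where that symbol is one of these 4 genes. This gave 4 of 18193 gene symbols and 8 of 45037 probe sets: 2 for Zic1, 1 for Zic2, 2 for Zic4 and 3 for Zic5. A probe set is a group of short oligonucleotides on the array that is summarised to 1 value, given here on the log2 scale, so that a difference of 1 is a doubling.

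The tissue was the ventral telencephalon of E13.5 mouse embryos (E for embryonic day), called ventral forebrain in the series' design text, and the title of the series concerns the prethalamus. One group was Olig2-/-, lacking a basic helix-loop-helix transcription factor of ventral progenitors, and the other was Olig2+/+. Each array carried RNA pooled from 3 brains. Of the 5 replicates that the design text states for each genotype, 3 were analysed here: wild-type replicates 1, 4 and 5 and knockout replicates 2, 4 and 5. The sources used here do not give the strain, the sex or the construction of the Olig2 allele, nor whether pools came from separate litters, so p-values measure only the spread between these 6 arrays.

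Zic proteins are relatives of the Gli factors that act downstream of Sonic hedgehog, and they bind DNA through a block of zinc fingers at the centre of the protein. In the mouse embryo the genes mark the dorsal and medial parts of the neural tube, and in the forebrain they are known from the septum, the midline, parts of the diencephalon, the eye and the meninges. Loss of ZIC2 is a known cause of holoprosencephaly, in which the forebrain fails to divide at the midline, and deletions spanning ZIC1 and ZIC4 are associated with the Dandy-Walker malformation of the cerebellum. The genes lie in pairs. In RefSeq, Zic1 and Zic4 are neighbours among protein-coding genes on chromosome 9, and Zic5 and Zic2 are neighbours on chromosome 14.

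The promoter windows of the members are shown because paired genes can share regulatory sequence and because Olig2 belongs to a class of factors that bind E-boxes. RefSeq windows, from 250 bases before to 50 bases after the gene start, were matched for 3 of the 4 genes: Zic1, Zic4 and Zic5. They are given 5′ to 3′ on the strand of the gene, with each match to the E-box letters CANNTG in capitals. The Zic1 window is chr9:91365719-91366018 on the minus strand and the Zic4 window is chr9:91368722-91369021 on the plus strand, so the pair is transcribed outward from between them. The Zic5 window is chr14:122465609-122465908 on the minus strand, and all 3 are in build GRCm38.p6.
Zic1: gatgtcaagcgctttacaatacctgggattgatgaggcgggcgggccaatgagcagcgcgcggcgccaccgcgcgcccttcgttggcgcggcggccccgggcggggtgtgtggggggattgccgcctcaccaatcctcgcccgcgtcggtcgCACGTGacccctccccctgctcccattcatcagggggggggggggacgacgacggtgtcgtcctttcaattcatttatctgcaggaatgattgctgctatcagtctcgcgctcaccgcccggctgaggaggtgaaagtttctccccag
Zic4: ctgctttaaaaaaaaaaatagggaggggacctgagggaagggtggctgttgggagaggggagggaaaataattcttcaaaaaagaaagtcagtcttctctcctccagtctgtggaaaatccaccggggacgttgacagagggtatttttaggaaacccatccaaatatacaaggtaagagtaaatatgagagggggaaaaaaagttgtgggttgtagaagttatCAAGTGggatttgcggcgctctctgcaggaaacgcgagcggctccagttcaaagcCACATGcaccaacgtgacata
Zic5: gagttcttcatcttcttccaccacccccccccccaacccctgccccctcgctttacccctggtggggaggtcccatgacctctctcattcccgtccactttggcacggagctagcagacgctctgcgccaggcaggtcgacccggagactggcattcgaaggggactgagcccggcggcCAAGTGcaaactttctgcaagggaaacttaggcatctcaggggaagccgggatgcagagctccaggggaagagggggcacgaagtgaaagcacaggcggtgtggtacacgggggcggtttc

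The Zic1 window held 1 E-box match (CACGTG), the Zic5 window 1 (CAAGTG) and the Zic4 window 2 (CAAGTG and CACATG). Of 32851 RefSeq windows of 300 bases, 72.3% held at least 1 such match, so such a match is common. The letters CAGCAGG and their reverse complement CCTGCTG, a form of the known Zic binding motif, were searched on both strands. They occurred in none of the 3 windows and in 10.5% of all windows. The windows differed in base composition: G and C made up 65.3% of the Zic1 window, with 31 CpG dinucleotides, 62.7% of the Zic5 window, with 15, and 46.0% of the Zic4 window, with 8. The medians over all windows were 52.7% and 7.

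The arrays were alike in distribution, with medians between 3.14 and 3.19 over non-control probe sets and a floor at 2.27. Olig2 itself lay between 7.48 and 7.76 on the knockout arrays and between 8.20 and 8.42 on the wild-type arrays. Whether its probe set lies inside the deleted part is not stated in these sources. Telencephalic and prethalamic Dlx1 was bright on every array, from 11.03 to 11.47, and thalamic Gbx2 was above the array median on every array. Of 2 defining genes of the medial ganglionic eminence, Lhx6 was above the array median on every array at both of its probe sets (8.22 to 9.10 at the brighter one) and Nkx2-1 on 1 array. Knockout replicate 2 stood apart in mesenchymal genes: its Col3a1 value was 8.10, against 4.04 to 6.20 on the other 5 arrays.

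All 8 Zic probe sets were above the median of their own array on all 6 arrays, so all 8 were tested, among 22565 probe sets that met this criterion on at least 3 arrays. The mean was lower in the knockout at all 8, by 0.05 to 0.79 on the log2 scale with a median difference of -0.37. Over the 22565 probe sets, 49.3% had a lower mean in the knockout. No Zic probe set passed limma's adjusted p of 0.05, and neither did any other probe set (0% called). At unadjusted p below 0.05 in limma, 2 of the 8 were lower, both of Zic5, where 4.42% of all tested probe sets were. The same 2 were the ones whose knockout arrays all lay below all wild-type arrays, against 7.25% of all tested probe sets in that direction and 8.96% in the other. Of all probe sets whose groups did not overlap, 44.8% were lower in the knockout, and 31.5% when each array was centred on its median. The probe sets of one gene share their transcript, so they are not independent of each other. Fewer cells of a type and less RNA per cell cannot be told apart in pooled tissue.

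**Figure D1:**
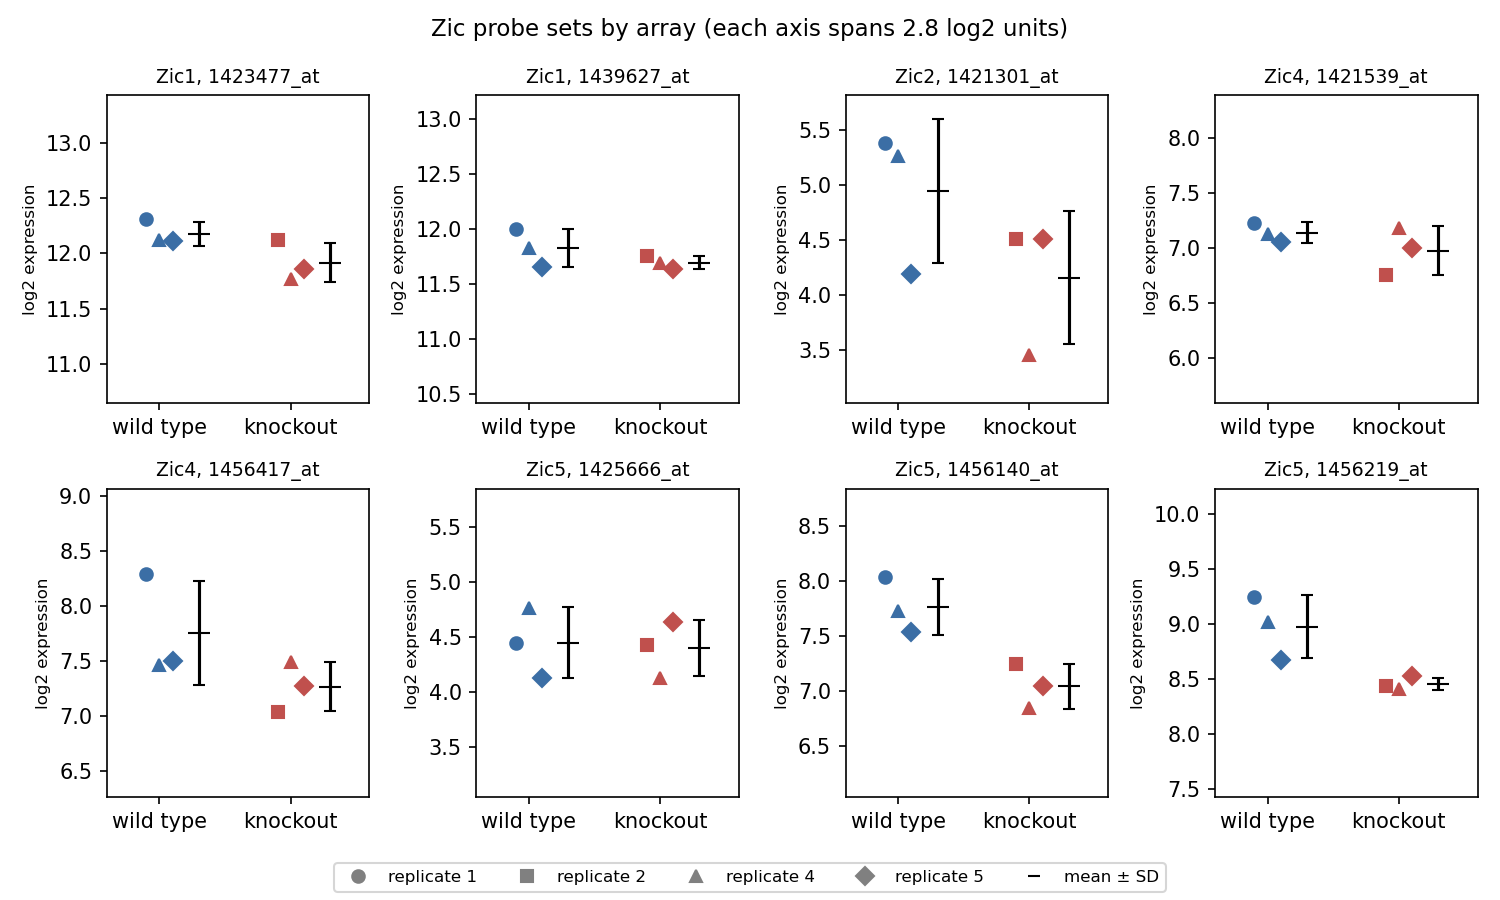
Log2 expression of the 8 Zic probe sets on each array, wild type in blue and Olig2 knockout in red, with the mean ± SD of 3 arrays beside the points and the replicate number as the marker. The knockout arrays lie below all wild-type arrays at 2 Zic5 probe sets, 1456140_at and 1456219_at, and the groups overlap at the other 6.

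Zic5, which is needed for neural tube closure and neural crest in the mouse, had the clearest separation of the genotypes. At its brightest probe set, 1456219_at, the wild-type arrays read 9.24, 9.01 and 8.67 (replicates 1, 4 and 5) and the knockout arrays 8.43, 8.41 and 8.52 (replicates 2, 4 and 5). Every knockout array lay below every wild-type array, with a gap of 0.15 between the nearest pair, and the knockout arrays were close together (SD 0.06) while the wild-type arrays spread over more (SD 0.29). The means were 8.97 ± 0.29 for Olig2+/+ and 8.45 ± 0.06 for Olig2-/- (SD, n = 3 each), a log2 difference of -0.52 (SE 0.15, 95% interval -0.89 to -0.15), or a 1.43-fold lower level. Limma gave an unadjusted p of 0.0145 and an adjusted p of 0.511. With array weights the difference was -0.34.

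The second Zic5 probe set, 1456140_at, gave the same order of the groups with a wider gap. It read 8.03, 7.72 and 7.53 on wild-type replicates 1, 4 and 5 and 7.24, 6.84 and 7.04 on knockout replicates 2, 4 and 5. The gap between the lowest wild-type and the highest knockout array was 0.29. The means were 7.76 ± 0.25 and 7.04 ± 0.20 (SD, n = 3 each), and the difference was -0.72 (SE 0.17, 95% interval -1.13 to -0.32), a 1.65-fold lower level, with limma's unadjusted p = 0.00501 and adjusted p = 0.511. The third probe set of Zic5, 1425666_at, gave a difference near 0. It was dim, at 4.45, 4.77 and 4.13 in the wild type and 4.43, 4.13 and 4.64 in the knockout, the groups overlapped over most of their range, and the difference was -0.05 (SE 0.20, limma's adjusted p = 0.93). Its sign turned with array weights and without knockout replicate 4 or wild-type replicate 4.

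The agreement of the Zic5 probe sets was described by the side of their own means and by within-array differences. A shift common to a whole array cancels only in the within-array differences. Such a shift, or a shared genotype difference, puts probe sets on the same side of their means. The 2 bright probe sets lay on the same side of their own means on 5 of 6 arrays, and their genotype differences differed by -0.21 (exact permutation p = 0.3, two-sided, adjusted p = 0.42 over 7 comparisons of this kind). The dim probe set lay on the same side as 1456140_at on 3 of 6 arrays and as 1456219_at on 4 of 6. It differed from 1456140_at by 0.67 in its genotype difference (exact permutation p = 0.1, two-sided, adjusted p = 0.35) and from 1456219_at by 0.47 (exact permutation p = 0.2, adjusted p = 0.42). With 3 arrays against 3, 0.1 is the smallest p such a test can give. Where each probe set lies on the transcript is not stated in these sources.

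Zic2, the neighbour of Zic5 and the family member that directs retinal axons to the same side of the brain through EphB1, had the largest mean difference and the widest spread of the 8 probe sets. Its single probe set, 1421301_at, read 5.38, 5.26 and 4.19 on wild-type replicates 1, 4 and 5 and 4.51, 3.45 and 4.51 on knockout replicates 2, 4 and 5. Wild-type replicates 1 and 4 were the highest, but wild-type replicate 5 lay below 2 knockout arrays, so the groups overlapped. The deposited values of knockout replicates 2 and 5 were identical in all digits. The means were 4.94 ± 0.65 for Olig2+/+ and 4.15 ± 0.61 for Olig2-/- (SD, n = 3 each), a difference of -0.79 (SE 0.43, with 95% limits of -1.85 and 0.27, limma's adjusted p = 0.524). The value rested on single arrays: it was -0.44 without knockout replicate 4, the lowest, and -1.16 without wild-type replicate 5. It was -0.41 with array weights. The Zic2 and Zic5 differences differed by -0.27 (exact permutation p = 0.5, two-sided, adjusted p = 0.583), and without knockout replicate 4 by 0.058.

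Zic4, which lies beside Zic1 and is expressed with it in the developing midline and cerebellum, differed mainly through one wild-type array. At 1456417_at the wild-type arrays read 8.29, 7.46 and 7.50 (replicates 1, 4 and 5) and the knockout arrays 7.04, 7.49 and 7.27 (replicates 2, 4 and 5). Wild-type replicate 1 lay well above the rest, and wild-type replicates 4 and 5 lay level with knockout replicate 4. The means were 7.75 ± 0.47 and 7.27 ± 0.22 (SD, n = 3 each), and the difference of -0.48 (SE 0.26, 95% interval -1.11 to 0.15, limma's adjusted p = 0.519) became -0.21 when wild-type replicate 1 was left out. With array weights it was -0.28.

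The other Zic4 probe set, 1421539_at, read 7.23, 7.13 and 7.05 in the wild type and 6.75, 7.18 and 7.00 in the knockout. The groups overlapped, and knockout replicate 2 was the lowest array at both probe sets of the gene. The difference was -0.16 (SE 0.13, 95% interval -0.48 to 0.15, limma's adjusted p = 0.599). It was -0.05 with knockout replicate 2 left out and -0.27 without knockout replicate 4. The 2 Zic4 probe sets lay on the same side of their means on 4 of 6 arrays. Within arrays, their genotype differences differed by 0.32, with no overlap of the groups (exact permutation p = 0.1, the smallest possible, adjusted p = 0.35).

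Zic1, known for its part in cerebellar granule cell precursors and in the medial forebrain, was bright and varied little, over a range of 0.53 at one probe set and 0.36 at the other. At 1423477_at the wild-type arrays read 12.31, 12.12 and 12.11 (replicates 1, 4 and 5) and the knockout arrays 12.12, 11.77 and 11.86 (replicates 2, 4 and 5). Knockout replicate 2 lay level with 2 wild-type arrays, which made the groups overlap by 0.01, and the other 2 knockout arrays lay below all wild-type arrays. The means were 12.18 ± 0.11 and 11.92 ± 0.18 (SD, n = 3 each), a difference of -0.26 (SE 0.12, 95% interval -0.55 to 0.03), or a 1.20-fold lower level, and limma's adjusted p was 0.511. Both Zic1 probe sets were brighter than at least 99.0% of all non-control probe sets, a range in which saturation can compress a difference. The highest values of the arrays were 14.54 to 14.71, and saturation at the Zic1 probe sets was not tested.

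The other Zic1 probe set, 1439627_at, read 12.00, 11.83 and 11.66 in the wild type and 11.76, 11.69 and 11.64 in the knockout, with overlapping groups. Its difference was -0.13 (SE 0.10, limma's adjusted p = 0.608). Leaving out wild-type replicate 1 gave -0.04. The 2 Zic1 probe sets lay on the same side of their means on 5 of 6 arrays, and their differences differed by -0.13 (exact permutation p = 0.3, two-sided, adjusted p = 0.42). The Zic1 and Zic4 differences differed by 0.22 (exact permutation p = 0.6, two-sided, adjusted p = 0.6).

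**Figure D2:**
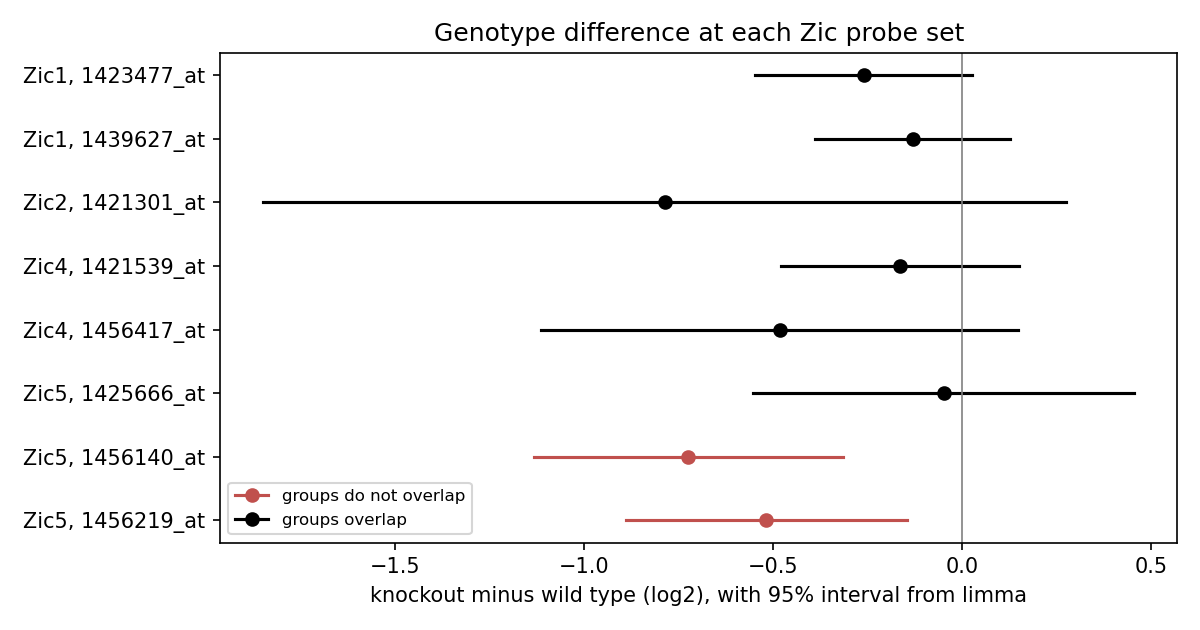
Knockout minus wild-type difference (log2, x axis) at each Zic probe set, with the 95% interval from limma over 6 arrays. All 8 points lie below 0, and the intervals of the Zic5 probe sets 1456140_at (-1.13 to -0.32) and 1456219_at (-0.89 to -0.15) do not reach it, before adjustment over all probe sets.

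Single arrays recurred as the highest and lowest of the members. Wild-type replicate 1 was the highest of the 6 arrays at 7 of the 8 probe sets, all but the dim Zic5 probe set, and knockout replicate 4 was the lowest at 4 of the 8. How often these arrays were highest or lowest over all tested probe sets was not counted, so these counts have no background. Averaged over the 4 genes at their brightest probe sets, wild-type replicate 1 lay 0.60 above the mean of the arrays, wild-type replicate 4 lay 0.26 above it, and wild-type replicate 5 deviated by -0.09. The knockout arrays deviated by -0.18, -0.42 and -0.17 (replicates 2, 4 and 5). Without wild-type replicate 1, all 8 means were still lower in the knockout and the 2 Zic5 probe sets still did not overlap, with differences of -0.38 at 1456219_at and -0.59 at 1456140_at. Without knockout replicate 4, 7 of the 8 means were lower, with -0.19 for Zic1, -0.44 for Zic2, -0.59 for Zic4 and -0.49 for Zic5 at the brightest probe sets.

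**Figure D3:**
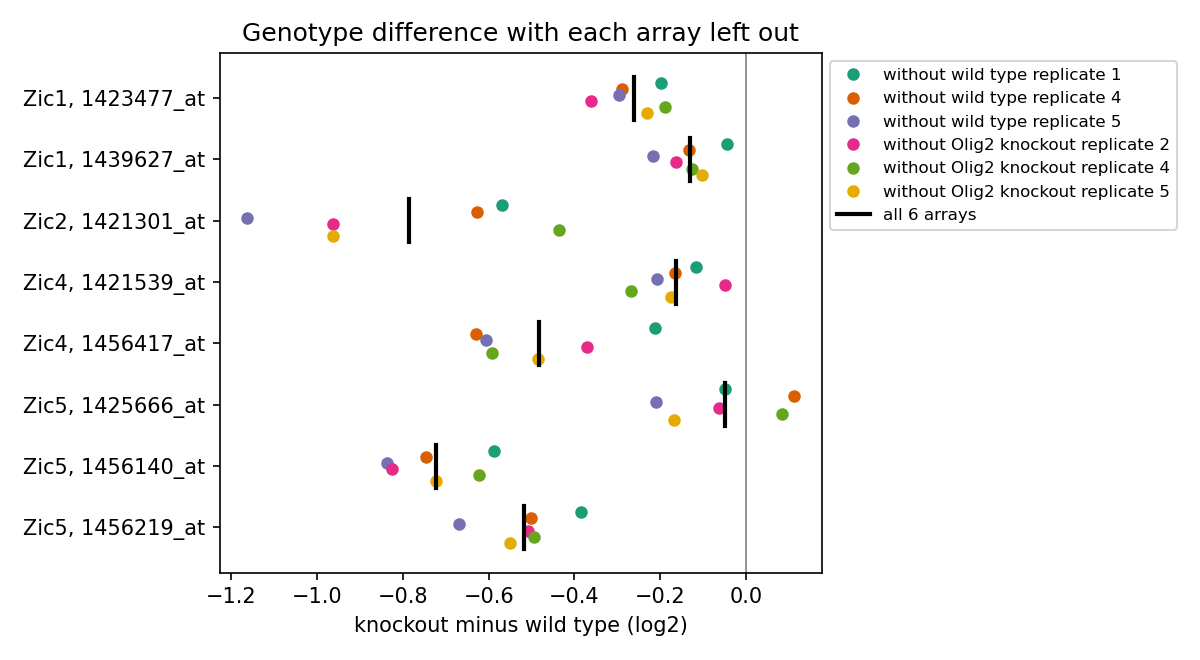
Knockout minus wild-type difference (log2, x axis) at each Zic probe set with all 6 arrays (black bar) and with each array left out in turn (coloured points). Every point of 7 probe sets stays below 0, and the points of Zic5 1425666_at reach 0.11.

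Genes of the thalamus and habenula, parts of the diencephalon in which Zic genes are known, were also mostly lower in the knockout. Here and below, a listed gene counts as measured if it had a probe set above the array median on at least 3 arrays. Sums over a whole list also take in the dimmer genes. Of the 14 genes listed 12 were measured, of which 10 had a lower mean and 7 had groups that did not overlap, all in that direction. Among all 10630 genes, each at its brightest kept probe set, 50.6% had a lower mean, 7.96% had groups that did not overlap and were lower, and 8.45% such groups that were higher. The median difference was -0.54, against -0.0015 over all genes, and none passed limma's adjusted threshold. The list was drawn up with lower values of several of its genes already known, so its count is no independent evidence. Gbx2, a homeobox gene of thalamic neurons, differed by -1.38, Rora, an orphan nuclear receptor, by -1.29, the forkhead gene Foxp2 by -0.56 and Barhl2, a homeobox gene, by -0.43, each with limma's adjusted p = 0.511. Summed on the linear scale over the brightest probe set of all 14 genes, the list lay between 2908 and 3445 on the wild-type arrays. On the knockout arrays it lay between 2082 and 2594. Bright genes such as Foxp2 (mean 10.04 in the wild type) weigh more than dim ones in this sum. With the 12 measured genes weighted equally, the wild-type arrays deviated by 0.19 to 0.39 and the knockout arrays by -0.52 to -0.10. Dbx1 is also on the list of the rostral midline and septum, so not every listed gene is particular to the thalamus or habenula. Irx1 and Irx2 were never above the array median. The list was highest on wild-type replicate 4 and lowest on knockout replicate 2, where Zic4 was lowest too. At their brightest probe sets, Zic1, Zic2 and Zic5 were instead lowest on knockout replicate 4. Zic1 lay 0.07 above its mean on knockout replicate 2, and Zic4 deviated by -0.05 on wild-type replicate 4. The part of thalamic tissue in the Zic difference was not tested.

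Meningeal cells express Zic genes and can adhere to dissected brain. Of 20 genes of meninges and mesenchyme 8 were measured, 2 lower and 6 higher in the knockout, all with overlapping groups, and the median difference was 0.15. Their summed level over all 20 was 583 to 780 in the wild type and 589 to 1290 in the knockout, with the top value on knockout replicate 2. Foxc2, Tbx18, Twist1, Aldh1a2, Col6a1 and Dcn were never above the array median. Without knockout replicate 2, all 8 Zic means were lower in the knockout, with -0.36 for Zic1, -0.96 for Zic2, -0.37 for Zic4 and -0.51 for Zic5 at the brightest probe sets. The part of meningeal tissue in the Zic difference was not tested.

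**Figure D4:**
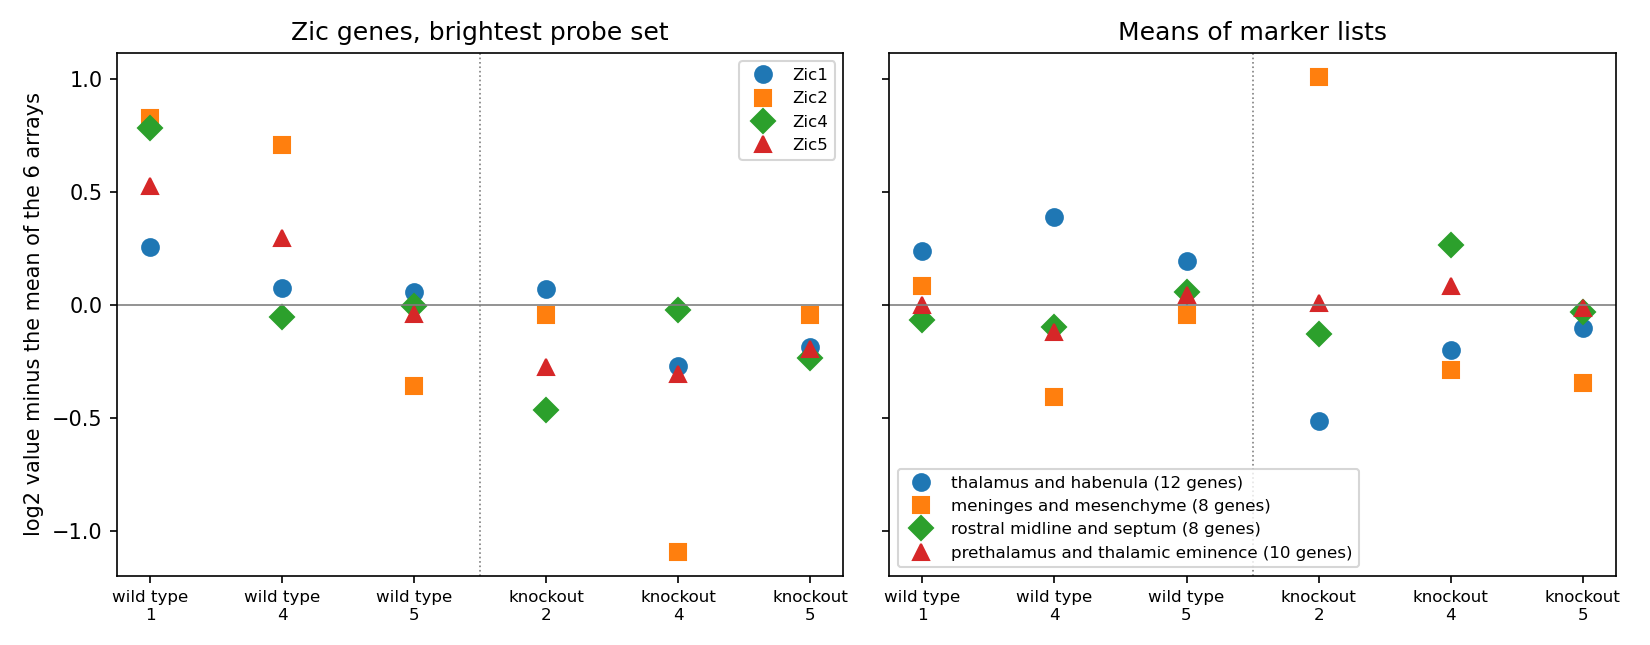
Log2 value minus the mean of the 6 arrays, for the 4 Zic genes at their brightest probe sets (left) and for the means of 4 marker lists (right), by array. The Zic genes are highest on wild-type replicate 1, the thalamus list on wild-type replicate 4, and the meninges list on knockout replicate 2 at 1.01.

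Other regions that express Zic genes were described through lists in the same way. Of 12 genes of the rostral midline and septum, the FGF-rich medial edge of the telencephalon, 8 were measured, 2 lower and 6 higher, with a median of 0.05. Fgf8, Fgf18 and Etv4 were never above the array median, so these FGF genes are not among the 8. The zinc finger gene Sp8 was 0.45 higher and the FGF antagonist Spry2 0.43 higher, both without overlap, while Spry1 differed by -0.48 and Vax1 by 0.09. Sp8 and Spry2 were the only 2 of the 8 without overlap, where 8.45% of all genes were higher without overlap. Of 13 genes of the prethalamus and thalamic eminence, 10 were measured, 5 lower and 5 higher (median -0.0017). The list holds genes that are also telencephalic, such as Dlx1, so it cannot tell prethalamic from telencephalic expression here. Groups did not overlap and were higher for 2 of the 10, Gsx2 and Meis2, where this share was 8.45% over all genes. Gsx2 was 0.54 above the wild type. Meis2 was 0.32 higher without overlap at its brightest probe set, and its 4 probe sets ranged from -0.13 to 0.32. Their limma adjusted p was 0.511 for Sp8, Spry2, Spry1, Gsx2 and Meis2. Of 17 dorsal midline and roof plate genes only the R-spondins Rspo1, Rspo2 and Rspo3 were measured, 2 lower and 1 higher, and 13 were never above the array median. Of 8 choroid plexus genes, 2 were measured: Ttr varied more between arrays (7.59 ± 3.81 and 7.08 ± 2.63) than between genotypes. Of 10 cerebellar, midbrain and hindbrain genes 1 was measured, and En1, En2, Pax5, Barhl1, Hoxa2, Hoxb2 and Hoxb4 were never above the array median.

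The closest relatives of the Zic genes and their pathway were set beside them. Of the 6 Gli and Glis genes listed 4 were measured, with a median difference of -0.02. Gli3, chiefly a repressor in the Sonic hedgehog pathway, was 0.18 higher in Olig2-/- without overlap at its brightest probe set (7.76 ± 0.08 and 7.94 ± 0.11, SD, n = 3 each, limma's adjusted p = 0.512). Its 3 probe sets ranged from 0.01 to 0.18. Gli2 differed by 0.03 (-0.44 at its other probe set), Glis2 by -0.08 (-0.20 at its other probe set) and Glis3 by -0.25. Of 16 genes of holoprosencephaly and the Sonic hedgehog pathway, a list that Zic2 would otherwise belong to, 12 were measured, 9 lower and 3 higher, with a median of -0.13. The groups did not overlap for 3 lower genes and 1 higher gene of the 12, where these shares were 7.96% and 8.45% over all genes. The homeobox gene Six3 differed by -0.89, the hedgehog receptor Ptch1 by -0.26 (0.18 at its other probe set), its partner Smo by -0.41 and the pathway inhibitor Sufu by -0.34, with limma's adjusted p of 0.511 for Six3, Ptch1 and Smo and 0.521 for Sufu. The summed level of the list was 3454 to 4249 in the wild type and 3171 to 3297 in the knockout. This linear sum gives bright genes such as Ptch1 (mean 11.09 in the wild type) the most weight. With the 12 measured genes weighted equally, the groups overlapped. Wild-type replicate 4 then deviated from the mean of the arrays by -0.08 and knockout replicate 4 by -0.03.

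Likeness to other genes was measured as the mean absolute gap between mean-centred log2 values over the 6 arrays, with each of 10630 genes at its brightest kept probe set. The 3 genes nearest to Zic5 were Ntrk2, the receptor of BDNF (gap 0.06), Gltp, a glycolipid transfer protein (0.08), and Rai1 (0.08). These 3 differed between the genotypes by -0.40, -0.46 and -0.49. The choice by smallest gap favours genes with a difference near that of Zic5 (-0.52), so these values are no separate result. Nearest to Zic4 were Fam53c (0.04), the chromatin remodelling subunit Smarcd1 (0.04) and the synaptic adhesion gene Nlgn2 (0.06). Nearest to Zic1 were Gtf3c2 (0.03), a subunit of an RNA polymerase III factor, Helz (0.03) and Nbea (0.03). Nearest to Zic2 were Palm2 (0.26), Lrrtm3 (0.26) and Fbxo41 (0.27), at gaps several times wider. The gap is not scaled to a gene's spread, and Zic2 had the widest range of the members (1.92). None of these 12 genes passed limma's adjusted threshold.

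The family members were not each other's nearest genes. Counted from Zic5, Zic1 had a gap of 0.16, with 4.17% of the other genes nearer, and Zic4 one of 0.19, with 10.3% nearer. Between the neighbours Zic2 and Zic5 the gap was 0.37, with 0.706% of genes nearer when counted from Zic2 and 84.1% when counted from Zic5. Between the neighbours Zic1 and Zic4 it was 0.26, with 80.8% nearer counted from Zic1 and 32.5% counted from Zic4. The rank therefore depended on the gene it was counted from. Zic2 and Zic5 lay on the same side of their own means on all 6 arrays, and Zic1 and Zic4 on 3 of 6. These gaps hold the genotype difference and the spread between arrays together, and all genes were measured on the same 6 arrays.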

How the data were processed

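The deposited values are log2 expression per probe set, used as given. According to the design text, the authors scanned with GCOS and MAS 5.0 and then ran GCRMA, which quantile-normalizes the signals, summarises each probe set and takes log2, with versions not given in the sources used here. Quantile normalization hides a change in total RNA, and GCRMA compresses differences near the floor. The platform annotation gave 34945 of 45037 probe sets 1 symbol, 932 several and 9160 none. Probe sets exceeding the median of their array on 3 or more of 6 arrays were kept (22565). Genotypes were compared with limma 3.58.1 in R 4.3.3 (lmFit, eBayes, two-sided, Benjamini-Hochberg over all kept probe sets, threshold 0.05), a step tested on simulated data. Single within-array differences used exact permutation over arrays. The 15 gene lists were described without a set test. The rule for named genes took every Zic probe set, Olig2, up to 4 members of lowest p per list and the 3 nearest genes per Zic gene; Dlx1, Nkx2-1, Lhx6 and Col3a1 were added as tissue checks. Members and lists were chosen with earlier results of these data known. Alternatives were other filters, scalings and variance models, array weights, the replicate number as a block, averaging the probe sets of a gene, and arrays left out.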

Additional observations from a re-analysis of the deposited data

How the results depend on the processing

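The number of arrays, 3 per genotype, limits every value here, and so does brightness: Zic2 and the Zic5 probe set 1425666_at are the dimmest members (means of 4.55 and 4.42) and Zic1 the brightest. No alternative gave a probe set past limma's adjusted threshold (0 in each, and 2121 at unadjusted p below 0.05 with all arrays). The differences of the 4 Zic genes at their brightest probe sets were lower in the knockout in all 60 limma alternatives, with adjusted p from 0.307 to 0.838. The mean of a gene's kept probe sets differed by -0.20 for Zic1, -0.32 for Zic4 and -0.43 for Zic5 (exact permutation p = 0.2, 0.3 and 0.1). With each array left out in turn the differences at the brightest probe sets ranged from -0.36 to -0.19 for Zic1, -1.16 to -0.44 for Zic2, -0.63 to -0.21 for Zic4 and -0.67 to -0.38 for Zic5. The count of Zic probe sets whose groups did not overlap and were lower in the knockout, 2 with all arrays, ranged from 2 to 5 with an array left out (4 without knockout replicate 4, 5 without wild-type replicate 5), while the share of all probe sets in that state ranged from 10.1% to 16.8%. It was 4 without both knockout replicate 2 and wild-type replicate 4 (23.3% of all probe sets in the same direction). The Zic5 probe set 1425666_at turned to 0.11 with array weights and to 0.10 without those 2 arrays, and ranged from -0.21 to 0.11 with single arrays left out. The difference between the Zic2 and Zic5 effects ranged from -0.49 to 0.058 with an array left out. The cause of these changes was not tested beyond the arrays named.

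Both genotypes have replicates numbered 4 and 5, with nothing in the labels on what the numbers share, so no pairing was assumed. Deviations from the group means correlated at -0.29 for number 4 and 0.32 for number 5 over kept probe sets. With the replicate number as a block, which leaves the genotype difference resting on those 2 pairs, the count past the threshold stayed 0, and the differences were -0.30 for Zic1, -0.74 for Zic2, -0.10 for Zic4 and -0.38 for Zic5. The 2 members at unadjusted p below 0.05 in limma were then Zic5 1456140_at and Zic1 1423477_at, no longer both of Zic5, and the 95% interval of Zic5 1456219_at ran from -0.90 to 0.15.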

Other observations

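Among 8 genes listed as reported Zic targets, 4 were measured, 1 lower and 3 higher in the knockout, with a median difference of 0.17. Ephb1, the guidance receptor that acts with Zic2 in retinal axons, was 0.21 higher with overlapping groups (7.74 ± 0.12 for Olig2+/+ and 7.95 ± 0.12 for Olig2-/-, SD, n = 3 each, limma's adjusted p = 0.513). Epha4, another Eph receptor, differed by -0.21 at its brightest probe set without overlap, and by up to 0.37 at others. It was the only 1 of the 4 without overlap, where 7.96% of all genes were lower without overlap. Apoe, an apolipoprotein, differed by 0.14 and Snai2, a neural crest gene and dim here, by 0.50. Atoh1, Slc6a4, Foxd3 and Pax3 were never above the array median.

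Of 9 hypothalamic genes 6 were measured, 2 lower and 4 higher (median 0.05). All 6 Cajal-Retzius genes were measured, 2 lower and 4 higher (median 0.14). Blood had 5 of 6 measured, all higher (median 0.12), with overlapping groups for each. Endothelium had 4 of 6 measured, 3 lower (median -0.07), and microglia 3 of 6, 2 lower (median -0.01). The endothelial gene Pecam1 was 0.39 higher without overlap, where 8.45% of all genes were higher without overlap. None of these genes passed limma's adjusted threshold.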
